A study of Homo sapiens with 6 samples.

Results

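The names counted here are the mature arms of miR-423, miR-191 and miR-103a, 3 human microRNAs that are often used as reference miRNAs when other miRNAs of extracellular vesicles are measured. They were chosen by name, as every row of the deposited table whose name without its arm is miR-423, miR-191 or miR-103a. That gave 5 of 1007 names, namely miR-423-5p, miR-423-3p, miR-191-5p, miR-191-3p and miR-103a-3p, and all 5 had enough counts to be tested. The question put to them was how steady they were between the groups, and how far that depended on the scaling of the libraries.

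The study sequenced small RNA of 18 to 30 nt from vesicles (exosomes) that MHCC97H cells released into their medium. MHCC97H is an established line of human liver cancer cells, kept for its strong tendency to metastasise. The 3 xanthatin libraries came from cells given 4 µmol/L xanthatin for 24 h, a plant compound of the sesquiterpene lactone class, and the 3 control libraries came from cells without xanthatin. Xanthatin was dissolved in DMSO, which the labels put at 0.5% in all experiments. The culture medium contained 5% ordinary bovine serum beside 5% exosome-depleted serum, and whether RNA of the serum is among the counts was not tested. All libraries came from 1 cell line, and nothing in the labels says whether the replicates were separate cultures, so that p-values measure the spread between these samples, which may be technical.

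A miRNA is cut from a hairpin in its primary transcript, and either arm of the hairpin can be loaded into an Argonaute protein, where the seed near its 5′ end pairs with target transcripts. A reference miRNA serves as a yardstick: the level of another miRNA is divided by it, so any change in the reference is passed to every other value with the opposite sign. miR-191 is raised in several cancers, hepatocellular carcinoma among them. miR-103 and its relative miR-107 share a seed and, in mice, lower insulin sensitivity in liver and fat.

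The mature sequences are shown because both the seed groups and the names that could exchange reads are read off them. All 5 members matched the RefSeq table (GRCh38.p14), and the seed, bases 2 to 8, is in capitals.
hsa-miR-423-5p: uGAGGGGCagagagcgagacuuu
hsa-miR-423-3p: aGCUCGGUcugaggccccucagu
hsa-miR-191-5p: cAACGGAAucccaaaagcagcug
hsa-miR-191-3p: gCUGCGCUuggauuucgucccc
hsa-miR-103a-3p: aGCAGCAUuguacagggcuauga
hsa-miR-3184-5p: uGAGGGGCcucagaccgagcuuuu
hsa-miR-107: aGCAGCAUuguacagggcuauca
No seed was shared between members, so the 5 arms fall into 5 seed groups. In the RefSeq table, the seed of miR-423-5p was shared with miR-3184-5p alone, and that of miR-103a-3p with miR-107 alone. miR-3184-5p and miR-423-5p begin with the same 8 bases, after which their sequences differ. miR-107 differs from miR-103a-3p by 1 base, G22C, counted from the 5′ end with the base of miR-103a-3p first. How the deposited counts divided reads between miR-103a-3p and miR-107 is not given in the sources used here.

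The members come from 4 hairpins (positions in GRCh38, host genes from GENCODE 29). MIR423 lies on chromosome 17 from 30117079 to 30117172 on the plus strand, in an intron of 11 transcripts of the gene NSRP1 and in an exon of 1 more. MIR3184 lies across it on the minus strand, from 30117086 to 30117160, so that miR-3184-5p (30117128 to 30117151) is antisense to miR-423-3p (30117131 to 30117153). MIR191 lies on chromosome 3 from 49020618 to 49020709 on the minus strand, in an intron of DALRD3, and MIR425 lies in an intron of the same gene (49020148 to 49020234). miR-103a-3p can come from MIR103A1 on chromosome 5 (168560896 to 168560973, minus strand, in an intron of PANK3) or from MIR103A2 on chromosome 20 (3917494 to 3917571, plus strand, in an intron of PANK2). The deposited counts do not separate these 2 sources.

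Depth differed between the groups, at 204520 to 267956 miRNA counts in xanthatin libraries and 63965 to 80088 in control libraries. Composition differed as well. The TMM factors, which correct a library's total for the few names that dominate it, were 0.880 to 0.898 in xanthatin libraries and 1.08 to 1.17 in control libraries. All 5 listed hepatocyte miRNAs were in the table, and their summed level was 30224 to 37106 CPM (counts scaled to a common library size) in xanthatin and 99802 to 121724 CPM in control libraries. Within that list the means differed in direction. miR-122-5p was at 1086 CPM in xanthatin and 48383 CPM in control libraries, and miR-148a-3p at 22469 CPM in xanthatin and 54885 CPM in control libraries. miR-192-5p was at 9282 CPM in xanthatin and 3978 CPM in control libraries, and miR-194-5p at 667 CPM in xanthatin and 209 CPM in control libraries. miR-885-5p had counts in control replicate 1 alone. Of 5 listed blood miRNAs, 3 were in the table, and their summed level was 615 to 795 CPM in xanthatin and 5496 to 10995 CPM in control libraries. Nearly all of it was miR-486-5p, at a mean of 669 CPM in xanthatin and 7685 CPM in control libraries, and miR-150-5p had counts in control replicate 3 alone. The defining red-cell marker miR-451a was near 0 in all libraries (1, 9 and 0 counts in xanthatin, 1, 3 and 2 in control). The part of depth, composition and these markers in the values below was not tested, except where a scaling alternative gives a value.

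The 5 arms covered more than 2 orders of magnitude in level. CPM is given here on library sizes scaled by TMM, and counts were not divided by length, since the mature names are 22 or 23 nt long. The order of the mean CPM was miR-423-5p, miR-423-3p, miR-191-5p, miR-191-3p and miR-103a-3p in control libraries. In the xanthatin libraries miR-103a-3p stood above miR-191-3p in each of the 3. In the control libraries the order of that pair was not the same in all, since control replicate 3 had no count of miR-191-3p. Together the members took 4.85% to 5.04% of the counts in xanthatin libraries and 6.13% to 7.46% in control libraries, so these ranges did not overlap. In RNA pooled from many vesicles, fewer vesicles that hold a miRNA and less of it per vesicle cannot be told apart.

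**Figure D1:**
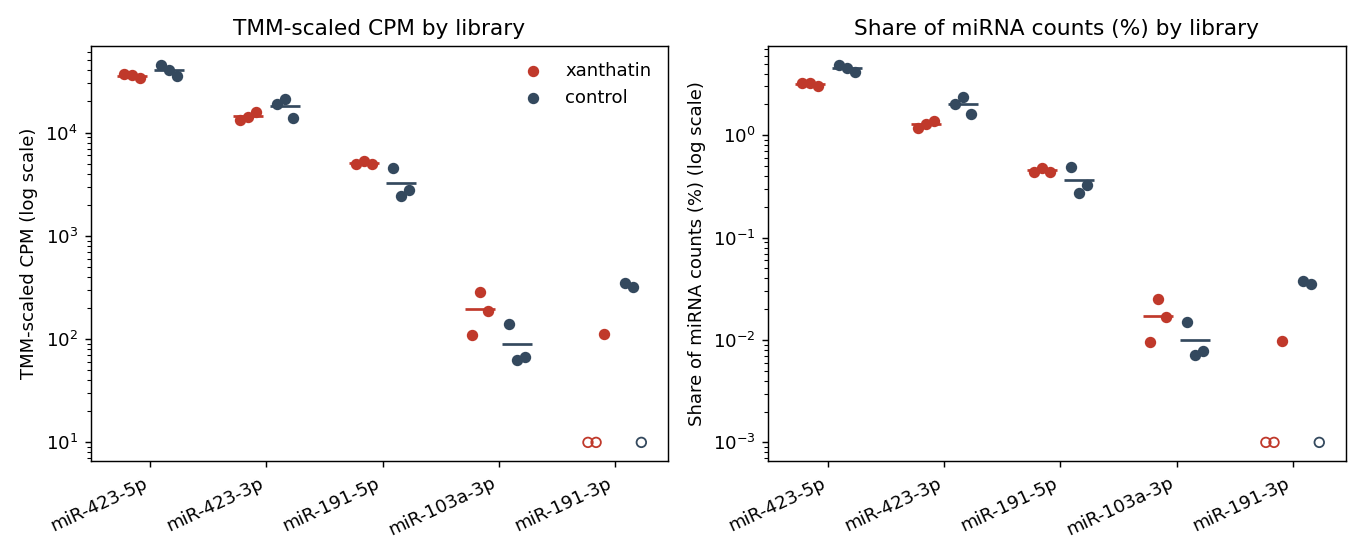
Levels of the 5 arms in each library, as TMM-scaled CPM (left) and as a share of all miRNA counts in percent (right), both on log axes, with xanthatin in red and control in dark blue. Points are libraries, lines are means of groups without a 0, and open circles at the bottom mark libraries with 0 counts. miR-423-5p lies between 34085 and 36517 CPM in xanthatin libraries and between 35581 and 45254 CPM in control libraries.

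miR-423-5p, the most abundant member, was the steadiest of the 5. It had 7713, 8719 and 6137 counts in xanthatin libraries, against 3910, 3171 and 2674 in control libraries. On the TMM scale these were 36517, 36248 and 34085 CPM in xanthatin and 45254, 40065 and 35581 CPM in control libraries. The groups overlapped, since control replicate 3 lay below the 2 higher xanthatin libraries. The mean was 35616 ± 1333 CPM in xanthatin and 40300 ± 4841 CPM in control libraries (SD, n = 3 each). The log2 fold change was -0.18 (SE 0.11, 95% interval -0.44 to 0.08, adjusted p = 0.242, edgeR quasi-likelihood test with Benjamini-Hochberg adjustment over 254 tested names). The interval reaches no further than -0.44, so a change in TMM-scaled CPM as large as 2-fold lies outside it. Some other scalings gave an interval that takes in a 2-fold fall, such as scaling to miR-191-5p (-1.44 to -0.38). By level, miR-423-5p ranked 8th in each xanthatin library and 5th or 6th in the control libraries.

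miR-423-3p, the other arm of the same hairpin, had 2780, 3424 and 2823 counts in xanthatin and 1634, 1673 and 1029 in control libraries. These were 13162, 14235 and 15679 CPM in xanthatin and 18912, 21138 and 13692 CPM in control libraries. Control replicate 3 was the lowest control library for both arms and lay inside the xanthatin range of this one. The mean was 14358 ± 1263 CPM in xanthatin and 17914 ± 3822 CPM in control libraries, and the log2 fold change was -0.32 (SE 0.18, 95% interval -0.75 to 0.11, adjusted p = 0.219, edgeR). Without control replicate 2, the highest control library, the log2 fold change was -0.08 (adjusted p = 0.701).

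miR-191-5p lay on the other side of 0. It had 1050, 1286 and 899 counts in xanthatin and 389, 191 and 211 in control libraries, or 4971, 5346 and 4993 CPM in xanthatin and 4502, 2413 and 2808 CPM in control libraries. Every xanthatin library was above every control library on this scale, with control replicate 1 well above the other 2 controls. The mean was 5103 ± 211 CPM in xanthatin and 3241 ± 1110 CPM in control libraries, so the spread was mostly among the controls. The log2 fold change was 0.65 (SE 0.26, 95% interval 0.03 to 1.28), with an unadjusted p = 0.0423 and adjusted p = 0.0994 in the edgeR fit, and it did not pass. Without control replicate 1 it was 0.93 (adjusted p = 0.0202), which did, where 19.3% of the names tested in that fit passed. It also passed with no count filter (0.95, where 6.65% of all names passed) and without the predicted name novel550_mature (0.81, where 32.8% passed).

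miR-191-3p, the minor arm of that hairpin, was read in some libraries only. It had 0, 0 and 20 counts in xanthatin and 30, 25 and 0 in control libraries. Where it had 0 counts, 3 counts would equal 14.2 and 12.5 CPM in xanthatin replicates 1 and 2, and 39.9 CPM in control replicate 3. Each group thus held libraries with and without it. It was at 111 CPM in xanthatin replicate 3, and at 347 and 316 CPM in control replicates 1 and 2. The log2 fold change of -2.58 had a 95% interval of -7.73 to 2.58 (SE 2.13, adjusted p = 0.403, edgeR), which allows a large change either way. Without xanthatin replicate 3 the xanthatin libraries held no count of it. Taking 3 counts summed over them as the limit (6.64 CPM), the control mean of 221 CPM was at least 33.3-fold above them. That is no bound on the change, since control replicate 3 had no count either. The 95% interval of the log2 fold change in that fit was -15.34 to -0.48, and it did not pass (adjusted p = 0.116, edgeR).

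miR-103a-3p was read at a low level in every library. It had 23, 68 and 34 counts in xanthatin and 12, 5 and 5 in control libraries. These were 109, 283 and 189 CPM in xanthatin and 139, 63.2 and 66.5 CPM in control libraries. The groups overlapped, since control replicate 1 lay above xanthatin replicate 1. The means were 193 ± 87.0 CPM in xanthatin and 89.5 ± 42.8 CPM in control libraries. The log2 fold change was 1.10 (SE 0.66, 95% interval -0.49 to 2.69, adjusted p = 0.239, edgeR). Counting error alone was wide: in control replicate 2 its share was 0.00712% of the miRNA counts, with a 95% Wilson interval of 0.00304% to 0.0167%, which covers counting error only. The interval of the log2 fold change covers 0 and reaches from -0.49 to 2.69, so these libraries did not settle a direction.

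Of the 5 members, 0 passed the edgeR test at an adjusted p under 0.05, where 30.3% of all 254 tested names did, 13.4% as higher and 16.9% as lower in xanthatin libraries. At an unadjusted p under 0.05 it was 1, miR-191-5p, and by DESeq2 that name passed as well (log2 fold change 0.83, adjusted p = 0.0168), the only member to do so, where 22.7% of the names DESeq2 tested passed. An adjusted p above the threshold does not show that a level was the same, and the intervals above give the sizes that remain possible.

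The call for a member depended on what the libraries were scaled to. The table's own units already differed. The deposited TPM divides each count by a library total that is far larger than the miRNA counts. Those counts made up 0.761% to 0.841% of it in xanthatin and 0.66% to 0.708% in control libraries. In TPM, miR-423-5p was at 267, 274 and 228 in xanthatin and 322, 320 and 284 in control libraries, and the groups did not overlap. miR-423-3p was at 96.3, 107 and 105 TPM in xanthatin and 135, 169 and 109 TPM in control libraries. miR-191-5p was at 36.4, 40.4 and 33.5 TPM in xanthatin and 32.1, 19.3 and 22.4 TPM in control libraries. So 3 of the 5 members did not overlap between groups in TPM, against 53.5% of all tested names, and 1 of the 5 did not overlap in CPM, against 54.7% of all tested names.

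As a plain share of the miRNA counts, both arms of miR-423 were lower in every xanthatin library than in any control library. They were the only 2 of the 5 members whose groups did not overlap on this scale, against 52.4% of all tested names. miR-423-5p took 3.23%, 3.25% and 3.00% in xanthatin and 4.88%, 4.52% and 4.18% in control libraries. The share of miR-423-3p was 1.17%, 1.28% and 1.38% in xanthatin and 2.04%, 2.38% and 1.61% in control libraries. With library totals only, miR-423-5p fell by 0.52 (SE 0.09, adjusted p = 0.00463) and miR-423-3p by 0.66 (SE 0.16, adjusted p = 0.0253) on the log2 scale in the edgeR fit. miR-191-5p overlapped on this scale, at 0.440%, 0.480% and 0.440% in xanthatin and 0.486%, 0.272% and 0.330% in control libraries. Its log2 fold change was 0.32 (SE 0.24, adjusted p = 0.359).

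**Figure D2:**
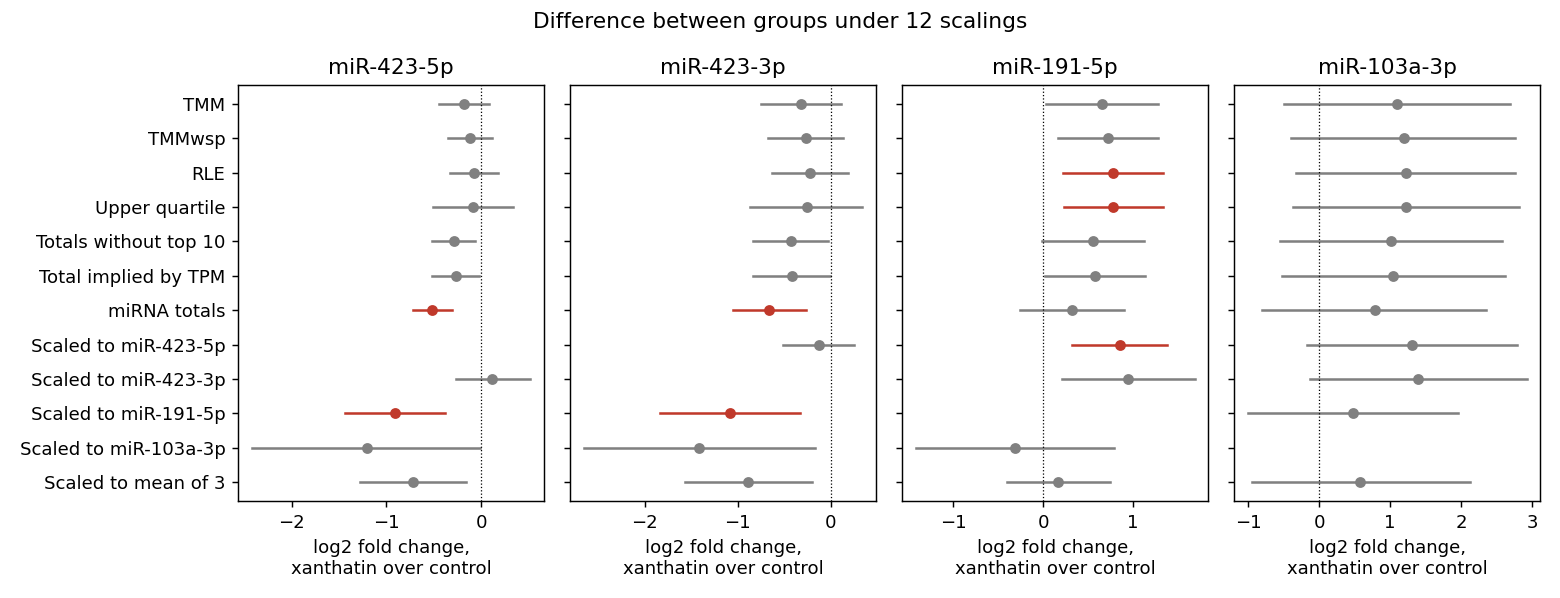
Log2 fold change of 4 members, xanthatin over control, under 12 scalings, from edgeR fits to all tested names. Points are estimates and bars 95% intervals, red where the adjusted p is under 0.05 and grey otherwise, and a member has no value when libraries are scaled to it. miR-423-5p runs from -1.21 to 0.12 and miR-191-5p from -0.31 to 0.94 as the scaling changes.

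Over 7 ways of scaling the libraries (TMM, TMMwsp, RLE, upper quartile, totals, totals without the 10 most abundant names, and the total implied by the TPM), miR-423-5p had log2 fold changes of -0.52 to -0.07 and passed in 1. miR-423-3p had -0.66 to -0.22 and passed in 1, the same scaling by totals. miR-191-5p had 0.32 to 0.78 and passed in 2, with RLE (0.77, adjusted p = 0.0459) and upper-quartile factors (0.78, adjusted p = 0.0492). miR-103a-3p had 0.78 to 1.22 and miR-191-3p -2.90 to -2.54, and neither passed in any of the 7. Of all tested names, 30.3% passed with TMM, 29.1% with TMMwsp, 31.9% with RLE, 26% with upper-quartile factors, 32.3% with totals, and 28.3% with either of the other totals. The median log2 fold change of all tested names moved over the same 7 scalings, from -0.49 with totals to -0.05 with RLE. A scaling moves all names by nearly the same amount, so the distance of a member from that median is close to constant by construction. miR-423-5p lay -0.03 to -0.01 from it, miR-423-3p -0.20 to -0.15, miR-191-5p 0.81 to 0.84, miR-103a-3p 1.26 to 1.30 and miR-191-3p -2.59 to -2.41. Under TMM the median was -0.16, and miR-423-5p had the 24th smallest absolute log2 fold change of 254.

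Ratios of 2 members within a library do not depend on any scaling. The ratio of the arms of miR-423 differed by less than the spread of the replicates. There were 2.77, 2.55 and 2.17 counts of miR-423-5p for each of miR-423-3p in xanthatin and 2.39, 1.90 and 2.60 in control libraries. The log2 ratio differed by 0.13 between groups, against a within-group SD of 0.21 (two-sided exact permutation p = 0.6).

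Between loci, some of the ratios stood apart. There were 7.35, 6.78 and 6.83 counts of miR-423-5p for each of miR-191-5p in xanthatin libraries, against 10.1, 16.6 and 12.7 in control libraries. The xanthatin libraries were close to each other, and every control library lay above them. The log2 ratio was 2.80 ± 0.06 in xanthatin and 3.68 ± 0.36 in control libraries (SD, n = 3 each), a difference of -0.88. With 3 libraries a side the exact permutation test cannot go below p = 0.1, which is the p it gave here. Adjusted over 10 pairs, p = 0.25 in this exact test. The log2 ratio of miR-423-3p to miR-191-5p was 1.49 ± 0.14 in xanthatin and 2.49 ± 0.56 in control libraries. That of miR-423-3p to miR-103a-3p was 6.29 ± 0.62 in xanthatin and 7.61 ± 0.61 in control libraries, and in both the groups did not overlap (exact permutation p = 0.1 each, adjusted p = 0.25). For miR-191-5p and miR-103a-3p the log2 ratio was 4.81 ± 0.63 in xanthatin and 5.12 ± 0.15 in control libraries. It differed by -0.31, against a within-group SD of 0.46 (exact permutation p = 0.5, adjusted p = 0.556). Ratios with miR-103a-3p rest on 12, 5 and 5 counts of it in control libraries. The log2 ratio of miR-423-5p to miR-103a-3p was 7.61 ± 0.69 in xanthatin and 8.80 ± 0.46 in control libraries, and the groups overlapped (exact permutation p = 0.2, adjusted p = 0.25). In all, 3 of the 10 pairs had groups that did not overlap. The same share over pairs of all tested names was not worked out, so the count is a description only. Of single tested names, 52.4% to 54.7% did not overlap, depending on the unit. In the 4 pairs with miR-191-3p the groups overlapped, with a within-group SD of 3.07 to 3.24 on the log2 scale (exact permutation p = 0.2 each, adjusted p = 0.25), and the size of their differences depends on the 0.5 added to counts of 0.

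**Figure D3:**
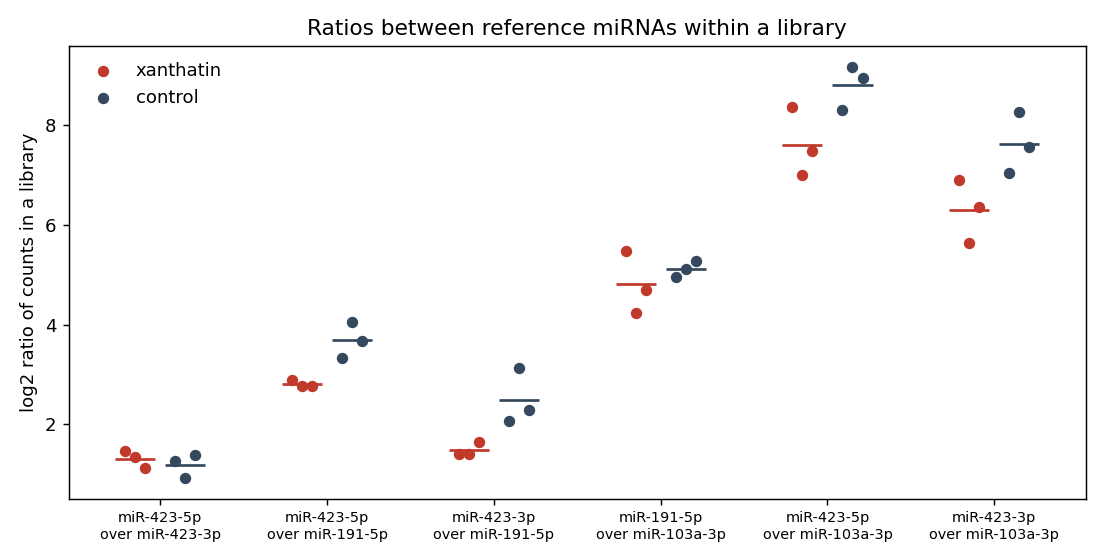
Log2 ratio of the counts of 2 members in the same library, after adding 0.5 to each count, for the 6 pairs without miR-191-3p, with xanthatin in red and control in dark blue. Points are libraries and lines are group means. The ratio of miR-423-5p to miR-191-5p is 2.76 to 2.88 in xanthatin and 3.33 to 4.05 in control libraries.

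Over all 6 libraries, miR-423-5p was among the least variable names in the table. The SD of its log2(CPM + 1) was 0.15, with 0.13 within groups, and it ranked 3rd lowest of 254 tested names. miR-423-3p followed at 0.27 (8th) and miR-191-5p at 0.49 (34th). miR-103a-3p, at 0.84, ranked 91st and miR-191-3p, at 4.34, ranked 238th. The median SD was 1.19 over tested names and 0.60 over the 61 tested known names with a mean of at least 1000 CPM. Among those 61, miR-423-5p ranked 3rd lowest, miR-423-3p 6th and miR-191-5p 22nd. The rank of a name moved with the scaling. Of the 254 tested names, miR-423-5p ranked 2nd with RLE or TMMwsp and 11th with totals only, where its SD was 0.29. The order of the members moved as well. With totals only, miR-191-5p (SD 0.34, 17th) varied less than miR-423-3p (SD 0.40, 25th), the reverse of their order under TMM. With each of the other library scalings, miR-423-3p had the lower SD of that pair.

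**Figure D4:**
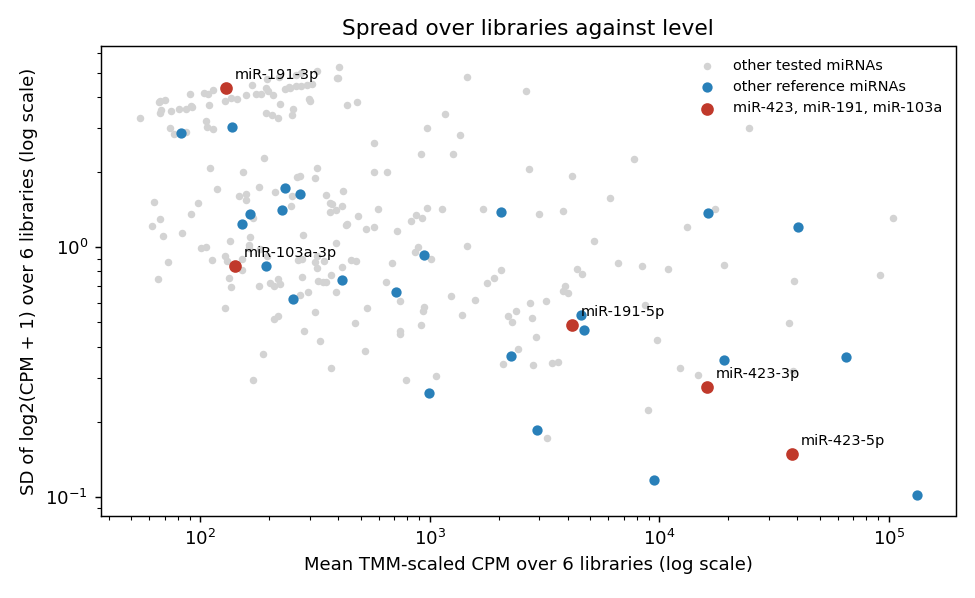
SD of log2(CPM + 1) over the 6 libraries against mean TMM-scaled CPM, both on log axes, for 254 tested miRNAs. Grey points are other tested miRNAs, blue points other reference miRNAs, and red points the 5 members. miR-423-5p is near the bottom at 0.15, while miR-103a-3p (0.84) and miR-191-3p (4.34) sit at the low-count end, where most names vary more.

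A spread that needs no scaling kept the order that the members it covered had under TMM, but set miR-423-5p, miR-423-3p and miR-191-5p closer together. For each name, the SD of its log2 count ratio to every other name was averaged over 62 names, the abundant known ones and miR-103a-3p. The mean was 0.86 for miR-423-5p (8th lowest), 0.90 for miR-423-3p (11th), 0.93 for miR-191-5p (15th) and 1.13 for miR-103a-3p (40th). The lowest were 0.84 for miR-151a-3p, miR-99a-5p, miR-26a-5p and miR-99b-5p. These values rest on the same 6 libraries and carry no test.

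The split of the calls into higher and lower names differed with the reference. With TMM, 34 of 254 tested names were higher and 43 lower in xanthatin libraries at an adjusted p under 0.05. Scaled to miR-423-5p, 42 were higher and 38 lower, and the median log2 fold change was 0.02. Scaled to miR-423-3p, 39 were higher and 33 lower, with a median of 0.16. Scaled to miR-191-5p, 15 were higher and 62 lower, with a median of -0.87. Scaled to miR-103a-3p, 2 were higher and 40 lower, with a median of -1.18. That scaling rests on few counts, 23, 68 and 34 in xanthatin and 12, 5 and 5 in control libraries. Their counting error passes into every value, and the geometric mean given next holds the same counts. Scaled to the geometric mean of miR-423-5p, miR-191-5p and miR-103a-3p, 15 were higher and 49 lower, with a median of -0.68. Higher names thus made up 52.5% of the calls with miR-423-5p as the reference and 19.5% with miR-191-5p, each fit leaving out the reference itself. The share of names passing in either direction was 31.6% with miR-423-5p, 28.5% with miR-423-3p, 30.4% with miR-191-5p, 16.6% with miR-103a-3p and 25.2% with the geometric mean. Against miR-191-5p, both arms of miR-423 fell, miR-423-5p by 0.91 (adjusted p = 0.0247) and miR-423-3p by 1.08 (adjusted p = 0.0432) on the log2 scale. Against miR-423-5p, miR-191-5p rose by 0.85 (adjusted p = 0.0298).

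**Figure D5:**
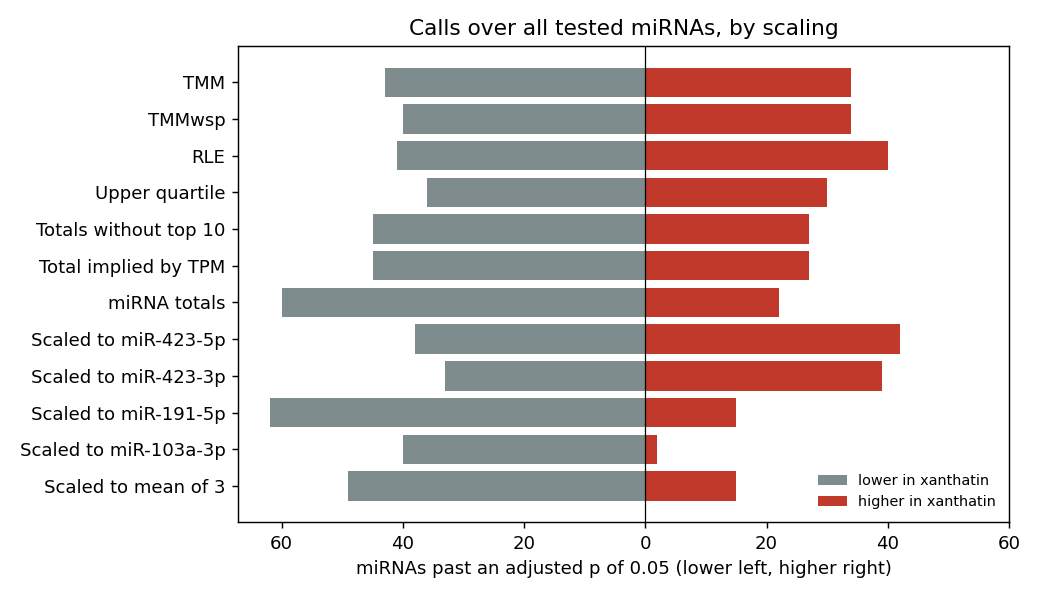
Number of tested miRNAs past an adjusted p of 0.05 in edgeR under 12 scalings, with names lower in xanthatin to the left (grey) and names higher in xanthatin to the right (red). Scaling to miR-423-5p gives 42 higher and 38 lower, and scaling to miR-103a-3p gives 2 higher and 40 lower.

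Other miRNAs used as references were set beside them, from a list of 30 names. Of these, 28 were in the table and 24 were tested. In the edgeR fit with TMM, 3 were higher and 1 lower, and 20 did not pass, where 30.3% of all 254 tested names passed. The median log2 fold change of the 24 was 0.60, against -0.16 over all tested names. The 3 that rose were let-7a-5p and let-7i-5p, both of the let-7 family that represses growth-promoting transcripts, by 2.17 and 2.44, and miR-148b-3p by 1.46 (adjusted p = 0.0399). miR-92a-3p, of the miR-17-92 cluster, fell by 0.64 (adjusted p = 0.00403). let-7a-5p was at 65742 ± 3806 CPM in xanthatin and 14566 ± 2375 CPM in control libraries (SD, n = 3 each), so as a reference it would shift other values by over 2 on the log2 scale.

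Among the 20 that did not pass, some were as steady as miR-423-5p and some were read too thinly to say. miR-151a-3p had 137242 ± 7437 CPM in xanthatin and 127701 ± 9436 CPM in control libraries, with a log2 fold change of 0.10 (95% interval -0.09 to 0.30) and the lowest SD of all abundant known names, 0.10. miR-99a-5p had 9855 ± 509 CPM in xanthatin and 9048 ± 830 CPM in control libraries, with 0.12 (-0.17 to 0.42) and an SD of 0.12. miR-26a-5p followed, at 0.31 (-0.07 to 0.69) with an SD of 0.18. miR-24-3p was at -0.10 (-0.84 to 0.65) and miR-30c-5p at 0.22 (-0.48 to 0.92). miR-25-3p, at 0.52 (adjusted p = 0.0513), was just outside the threshold. miR-16-5p, often used as a reference in blood, had 3, 29 and 31 counts in xanthatin and 4, 4 and 2 in control libraries and was not tested. miR-484 had 26, 63 and 31 counts in xanthatin and 34, 27 and 17 in control libraries, with a log2 fold change of -0.78 (-2.01 to 0.45). The lowest value was that of miR-425-5p, given with its locus further on. Of the rest, miR-126-3p was at -1.86 (adjusted p = 0.075, edgeR) and miR-28-5p at 3.03 (adjusted p = 0.0792, edgeR). Both had intervals on 1 side of 0, as did miR-25-3p (0.14 to 0.91), miR-222-3p (0.06 to 2.01) and miR-151a-5p (0.10 to 3.80). Between miR-126-3p and miR-28-5p lay miR-320a-3p (-0.38), miR-361-5p (-0.02), miR-28-3p (0.69), miR-23a-3p (0.84), miR-93-5p (0.86), miR-222-3p (1.03), miR-221-3p (1.16), miR-186-5p (1.70), miR-23b-3p (1.86) and miR-151a-5p (1.95). miR-151a-5p stood apart from its own other arm, at a mean of 361 CPM in xanthatin and 92.6 CPM in control libraries (adjusted p = 0.0994, edgeR). Off that list, miR-99b-5p was also among the 5 steadiest names other than the members, counted over known names with a mean of at least 1000 CPM, with an SD of 0.22, but its log2 fold change was 0.37 (0.07 to 0.67, adjusted p = 0.065).

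Of the other names at the members' loci, miR-3184-5p, antisense to miR-423-3p and of the same seed as miR-423-5p, had 251, 199 and 199 counts in xanthatin and 125, 73 and 66 in control libraries. Its log2 fold change was -0.06 (SE 0.32, adjusted p = 0.936), and its SD of 0.31 placed it last of the 5 steadiest of those abundant known names. There were 30.7, 43.8 and 30.8 counts of miR-423-5p for each of miR-3184-5p in xanthatin and 31.3, 43.4 and 40.5 in control libraries, so the groups overlapped. Whether the counting used strand is not given in the sources used here, so reads of the 2 hairpins may not have been kept apart.

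miR-425-5p, from the same host gene as miR-191, had 10, 51 and 7 counts in xanthatin and 5, 33 and 48 in control libraries. Its log2 fold change was -1.88 (SE 1.06, adjusted p = 0.223). The libraries differed widely within each group, so no direction could be told. miR-425-3p had 0, 10 and 0 counts in xanthatin and 1, 0 and 1 in control libraries and was not tested. Of the 8 listed names from the members' loci, 4 were in the table and 3 were tested, miR-423-3p among them, and 0 passed (adjusted p = 0.219 to 0.936, edgeR), where 30.3% of all tested names did.

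The seed relatives of miR-103a-3p were thinly read. miR-107 had 17, 0 and 15 counts in xanthatin and 1, 0 and 0 in control libraries, and was not tested. None of the listed relatives of miR-103a-3p with the same or a shifted seed, miR-16-5p among them, had enough counts to be tested. The list of seed partners held 11 names in all, of which 4 were in the table, and the only one tested was miR-3184-5p, which belongs to miR-423-5p. Since miR-107 differs from miR-103a-3p by 1 base near the 3′ end, reads of the 2 names cannot be told apart where they end short of that base.

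The names whose pattern over the 6 libraries was most like each member were found by the root mean square difference of mean-centred log2(CPM + 1), among 162 tested known names with a mean of at least 100 CPM. For miR-423-5p they were miR-151a-3p (0.16), miR-99a-5p (0.17) and its own other arm (0.18). For miR-423-3p they were miR-423-5p (0.18), miR-24-3p (0.19) and miR-335-3p (0.26). For miR-191-5p they were miR-941 (0.14), miR-224-5p (0.21) and miR-100-5p (0.21). Of those 3, miR-224-5p and miR-100-5p rose by 0.87 (adjusted p = 0.00299) and 0.54 (adjusted p = 0.0103) in the edgeR fit, and miR-941 was at 0.76 (adjusted p = 0.15). For miR-103a-3p they were let-7d-3p (0.38), miR-222-3p (0.41) and miR-941 (0.41). For miR-191-3p the nearest, miR-6834-5p, was 2.30 away, and the next were miR-505-5p (2.53) and miR-500a-3p (2.79). The libraries share depth within each group, so this likeness is a description only.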

How the data were processed

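The deposited table holds, per the file headers, a whole-number count and a TPM value for every mature miRNA name in all 6 libraries. Each deposited TPM was its count over a per-library total, not adjusted for length, and what that total counts is not stated. Per the submitters' processing notes the genome was hg38; which aligner, miRNA database and counter were used is not given in the sources used here.

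The main test was edgeR 4.0.16 under R 4.3.3 on the deposited counts (quasi-likelihood F test, TMM, default count filter with a minimum count of 10, 254 of 1007 names), with Benjamini-Hochberg adjustment over all tested names and a threshold of 0.05. Standard errors were obtained from the fold change and the F statistic. The labels do not say that molecular identifiers were counted, so intervals and floors of shares cover counting error only. Scaling to a member used its count in each library as the library size. Alternatives also included DESeq2 1.42.0, limma 3.58.1 and other filters.

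The members, lists and tests were chosen with earlier results of these data known. miR-423-3p, found by the naming rule in the table, and the scaling to it were added after seeing the data. The rule for other names took the tested names of the lists, the 5 steadiest abundant names, and the 3 names most like each member. Untested listed names and the hepatocyte and blood markers were named outside this rule. No 2 libraries of a group agreed within sampling noise.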

Additional observations from a re-analysis of the deposited data

How the results depend on the processing

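Beyond the scalings given above, miR-423-5p turned to the other side of 0 without passing when scaled to miR-423-3p (0.12) or with no count filter (0.11), and it passed with totals only (-0.52) or scaled to miR-191-5p (-0.91). Its SD over 6 libraries was 0.29 with totals only. miR-423-3p passed in the same 2 fits (-0.66 and -1.08). miR-191-5p passed with RLE (0.77), upper-quartile factors (0.78), scaling to miR-423-5p (0.85), no count filter (0.95), without novel550_mature (0.81) and with DESeq2 (0.83), and was at -0.31 scaled to miR-103a-3p. Leaving out each library in turn gave 0.59 to 0.93 for it, -0.19 to -0.08 for miR-423-5p, -0.43 to -0.08 for miR-423-3p, 0.75 to 1.54 for miR-103a-3p and -7.91 to -1.94 for miR-191-3p. miR-191-3p and miR-103a-3p passed in none of the fits run, and thinning the libraries left miR-191-3p with too few counts for the test. Its -7.91 compares control libraries with libraries at 0 counts and is no bound. Log ratios with miR-191-3p were not run with a pseudocount of 0.

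Names higher in xanthatin libraries numbered 22 with totals only, 15 scaled to miR-191-5p or to the geometric mean and 2 scaled to miR-103a-3p. With known names only, 22 were higher and 27 lower of 175 tested. With a library left out, where 244 to 345 names were tested, 22 to 30 were higher. Names lower then numbered 31 to 41. Other reference miRNAs that were higher numbered 5 with RLE, scaled to miR-423-5p, without novel550_mature or with limma-trend on CPM + 10, 6 with no filter or DESeq2, and 0 scaled to miR-103a-3p. Those that were lower numbered 0 with upper-quartile factors, with no filter and scaled to miR-423-5p, miR-423-3p or miR-103a-3p, 3 with totals only, and 2 scaled to miR-191-5p, with limma-voom and with limma-trend on CPM + 1, CPM + 10 or TPM. With a library left out they numbered 0 (without control replicate 2) or 1, and 2 or 3 were higher. The other reference miRNAs tested numbered 24 with TMM, 28 with no filter, 27 with DESeq2 and 22 to 27 with a library left out. The cause of the changes in calls was not tested.

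Same-numbered libraries did not deviate together (r = 0.089, -0.077 and -0.140 across names), so the numbers are not taken as pairs. With a replicate block 21 names were higher and 33 lower, and no member passed (miR-423-5p at -0.17, miR-191-5p at 0.71).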
